A study of Mus musculus with 8 samples.

Results

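The medium of muscle cell co-cultures that carried mutant human SOD1 in both chambers was compared with the medium of co-cultures that carried wild-type human SOD1 in both. The arrays were chosen by their title group: 3 G93A/G93A arrays and 2 WT/WT arrays, 5 of the 8 arrays of the series. The other 3 arrays, of a mixed G93A/WT co-culture, helped to set the scaling, the floor, the choice of tested miRNAs and the spread of the fit, and were not tested against either group here. The question was which microRNAs (miRNAs) differ in medium when every myocyte carries the G93A mutation, which causes motor neuron disease in mice that models amyotrophic lateral sclerosis (ALS).

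WT cells came from B6SJL(Tg-SOD1)2Gur/J mice, which overexpress unmutated human SOD1, and G93A cells from B6SJL(Tg-SOD1*G93A)1Gur/J mice, which overexpress the G93A mutant. Both groups therefore carried a human SOD1 transgene, and no non-transgenic culture was analysed here. Transgenic males were hemizygous and were bred to wild-type females, per the series' design text, and every sample carries the tag Male in its labels. Myoblasts were taken from the hind limb muscle of pups aged 1 to 3 days and received no treatment. They were seeded at 2.5 (bottom chamber) and 1.5 (insert), both in 1e5 cells, on either side of a membrane with pores of 0.4 µm. Medium was collected at 2 days in vitro, the day on which growth medium with 10% foetal bovine serum gave way to differentiation medium with 2% horse serum; which of these was collected is not named. A mature miRNA of the same sequence from bovine or equine serum would give the same signal, and medium that had met no cells was not analysed here. The samples are described as biological replicates, with no litter, culture day or batch named, so p-values measure the spread between these samples.

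A miRNA is a short RNA cut from 1 arm of a hairpin precursor, called 5p or 3p by the arm it comes from. It pairs with messenger RNAs mainly through its seed, bases 2 to 8, so miRNAs that share a seed form a family with overlapping targets. Cells release miRNAs in vesicles, bound to proteins, or through loss of membrane integrity. Skeletal muscle has its own set (miR-1, miR-133, miR-206) that rises as myoblasts fuse. In bulk medium, fewer cells of a type and less release per cell cannot be told apart.

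Between 450 and 483 of 1881 mouse miRNAs were detected on these 5 arrays, and 423 on all of them. Summed signal ran from 115122 to 139644 units per array, and the 3 brightest miRNAs took 43.7% to 48.1% of it. The median scanner error of a detected miRNA was 9.35% to 10.8% of its signal. Across the tested miRNAs, r between arrays was 0.970 to 0.990 within a group and 0.951 to 0.974 between the groups. The control feature dmr_3 gave 3542 units on WT/WT 1 and 225 to 1128 on the other 7 arrays of the slide, and dmr_6 gave 919 against 41.3 to 255. All arrays lay on 1 slide. WT/WT 1 lay in row 1 with the mixed co-cultures, and WT/WT 2 lay in row 2 with the G93A/G93A arrays. WT/WT medium had 455.5 ± 7.78 detected miRNAs (SD, n = 2) against 470.0 ± 16.8 for G93A/G93A medium (SD, n = 3), a difference of 14.5 that did not pass an exact permutation test (2-sided p = 0.4, where 0.2 is the smallest value possible).

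The cells' identity was checked against muscle miRNAs. Signals below are log2 values after scaling between arrays, in the order WT/WT 1 and 2, then G93A/G93A 1, 2 and 3, with a floor of log2 0.60 for an undetected miRNA. miR-206-3p, the miRNA most confined to skeletal muscle, stood at 11.28 and 11.75 in WT/WT and at 11.28, 11.21 and 11.23 in G93A/G93A, among the brightest signals of every array. miR-133a-3p, its partner in myogenesis, stood at 8.96 and 8.93, then 8.28, 9.36 and 9.73, and miR-1a-3p, which promotes differentiation, at 7.41 and 7.41, then 7.35, 7.70 and 7.42. The groups overlapped for miR-133a-3p and miR-1a-3p. miR-208a-3p, miR-208b-3p and miR-499-5p, encoded in myosin heavy chain genes of heart and slow muscle, were detected on none of the 5 arrays. Of the 6 tested muscle-enriched miRNAs, none passed, and 1 of them was detected on none of the 5 arrays and could not pass. Over the 5 detected the median difference was 0.08, and over all 6 it was 0.04. The median over all 6 ranged from −0.06 to 0.13 over 13 alternatives, below zero in 2. These 13, used for every list median, change the scaling, the values used, the slide row or the arrays kept. None of them is a floor or detection setting. Their summed scaled signal was 4689 and 5362 in WT/WT and 4216, 5066 and 5202 in G93A/G93A.

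In G93A/G93A medium 46 of 538 tested miRNAs passed an adjusted p of 0.05, which is 8.55% of those tested. Of these, 26 were lower (4.83%) and 20 were higher (3.72%). miRNAs known from epithelia held the 3 largest decreases, and miR-181a-5p, miR-17-3p and miR-212-3p, detected in WT/WT medium, were not detected in G93A/G93A medium. The larger increases were mostly in dim miRNAs with high registry numbers. The median difference over all 538 was −0.01, and 143 had an unadjusted p under 0.05. Of the 538, 35 were detected on none of the 5 arrays and had a difference of exactly 0. Such miRNAs could not pass, and list counts and medians include them where they were tested. Over the 503 detected on at least 1 of the 5 arrays the median was −0.04, and 54.1% lay below zero. Every adjusted p here is from limma's moderated test over the 538 miRNAs.

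These counts rest on few arrays. A block for the slide row left 7, and the same 7 passed without WT/WT 1, since WT/WT 2 is the wild-type array that remains in either fit: miR-205-5p, miR-203-3p, miR-200b-3p, miR-200c-3p, miR-181a-5p and miR-17-3p, all lower, and miR-8119, higher. Leaving out WT/WT 2 gave 21 calls, leaving out G93A/G93A 1 gave 24 and leaving out G93A/G93A 2 gave 22. Of the 7 above, miR-203-3p, miR-200b-3p, miR-200c-3p, miR-181a-5p and miR-17-3p were at the floor on all 3 mutant arrays. They had no spread there, which can make their p-values too small. In none of 27 alternatives did any of the 46 take the opposite sign, and miR-291b-5p had a difference of 0 in 1 of them. The 46 were picked for passing on these same arrays, so an unchanged sign was close to given. Scaling moved the split of higher and lower calls: it was 37 and 21 with the percentile taken over all tested miRNAs, 5 and 28 with the arrays scaled on the median, and 4 and 14 with miRNAs numbered below 1000 and the rest centred separately.

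**Figure D1:**
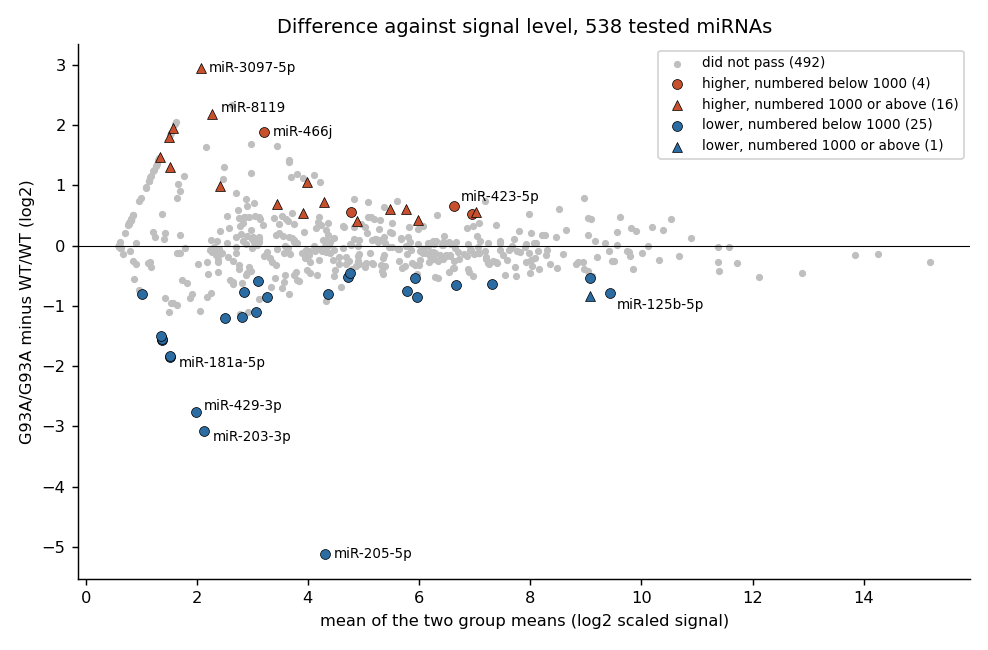
Each point is 1 of the 538 tested miRNAs, with the mean of the WT/WT and G93A/G93A group means (log2 scaled signal) on the x axis and the difference G93A/G93A minus WT/WT (log2) on the y axis. Blue marks the 26 that passed lower and red the 20 that passed higher, circles those numbered below 1000 and triangles the rest. miR-205-5p lies lowest at −5.12, and of the 41 miRNAs with a WT/WT level of 9 or above 3 passed, all lower.

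The mature sequences of the 5 epithelial miRNAs that fell are shown first because 3 of them share a seed. Sequences are from RefSeq on GRCm38.p6, written 5′ to 3′ with the seed in capitals, and 42 of the 46 miRNAs that passed had an entry.
miR-205-5p: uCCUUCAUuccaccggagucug
miR-203-3p: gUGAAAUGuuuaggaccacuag
miR-429-3p: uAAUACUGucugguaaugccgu
miR-200b-3p: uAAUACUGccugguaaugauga
miR-200c-3p: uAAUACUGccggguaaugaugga

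All 5 are epithelial miRNAs. miR-205-5p (chr1:193507503-193507524, minus strand, in no other annotated gene) belongs to stratified epithelia such as skin. miR-203-3p (chr12:112130927-112130948, plus strand, in no other annotated gene) drives keratinocytes out of the cell cycle. The miR-200 family, to which the other 3 belong, represses Zeb1 and Zeb2 and so holds cells in an epithelial state. miR-429-3p (chr4:156053916-156053937) and miR-200b-3p (chr4:156055685-156055706) lie in 1 cluster on the minus strand, within the span of the long non-coding RNA gene Gm13648, and miR-200c-3p lies at chr6:124718324-124718346. The annotation used here gives gene spans, not exons. Counted from the 5′ end, miR-429-3p differs from miR-200b-3p by C9U, A19C, U20C and A22U, and miR-200c-3p from miR-200b-3p by U11G and A22G over their shared length, so the family's seed is the same in all 3.

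miR-205-5p stood at 6.99 and 6.77 in WT/WT, and at the floor, 2.42 and 2.24 in G93A/G93A. The highest mutant array was far under the lower wild-type array. The difference was −5.12 ± 0.51 (SE, adjusted p = 0.00301). As 1 mutant array is at the floor, this value depends on the floor, and it was −5.46 with the floor 2 times lower and −4.79 with it 2 times higher. miR-203-3p was detected at 3.94 and 3.41 in WT/WT and on no G93A/G93A array, at least 7.73-fold lower (adjusted p = 0.00301).

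The miR-200 family members were dimmer. miR-429-3p stood at 3.33 and 3.40 in WT/WT and was at least 6.23-fold lower in G93A/G93A (adjusted p = 0.0068). miR-200b-3p stood at 2.95 and 1.91 (at least 3.26-fold lower in the mutant, adjusted p = 0.0143). miR-200c-3p stood at 2.40 and 1.89 (at least 2.67-fold lower in the mutant, adjusted p = 0.00306). All 3 were detected on both WT/WT arrays and on no G93A/G93A array. Such a fold sets the WT/WT mean against the lowest signal detected on each mutant array. The 3 mutant arrays then share 1 floor value and vary by nothing, which can make these adjusted p-values too small. The same holds for miR-203-3p and for every other miRNA at the floor on all arrays of 1 group. Scanner errors were larger here than for bright miRNAs, at 19.4% and 29.0% of the signal for miR-200b-3p.

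Of 10 epithelial miRNAs on the array, 5 were tested and all 5 fell, against 4.83% of all 538 tested. Their median was −2.76 against −0.01 over all tested, and it ran from −5.09 to −2.44 over 13 alternatives. Those 13 hold no floor setting. The difference of the middle member, miR-429-3p, came as close to zero as −1.765 over the 25 alternatives that tested it. This list was known to hold lower values when it was chosen, so its count is a description. The other 5, miR-200a-3p, miR-141-3p, miR-183-5p, miR-96-5p and miR-182-5p, were detected on none of the 5 arrays. The summed scaled signal of the list was 166 and 138 in WT/WT and 0, 5.36 and 4.74 in G93A/G93A, and it was 61.2, 85.0 and 73.2 in the mixed G93A/WT medium. miR-203-3p passed in 25 of the 25 alternatives that tested it, miR-429-3p and miR-200c-3p in 23 of 25 and 23 of 24, miR-205-5p in 22 of 25 and miR-200b-3p in 21 of 25. A neighbour went the other way: miR-200a-5p, from the hairpin between miR-429 and miR-200b, was at the floor on both WT/WT arrays and at 1.45, 1.45 and 2.14 in G93A/G93A, a difference of 1.08 ± 0.43 that did not pass (SE, adjusted p = 0.162).

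**Figure D2:**
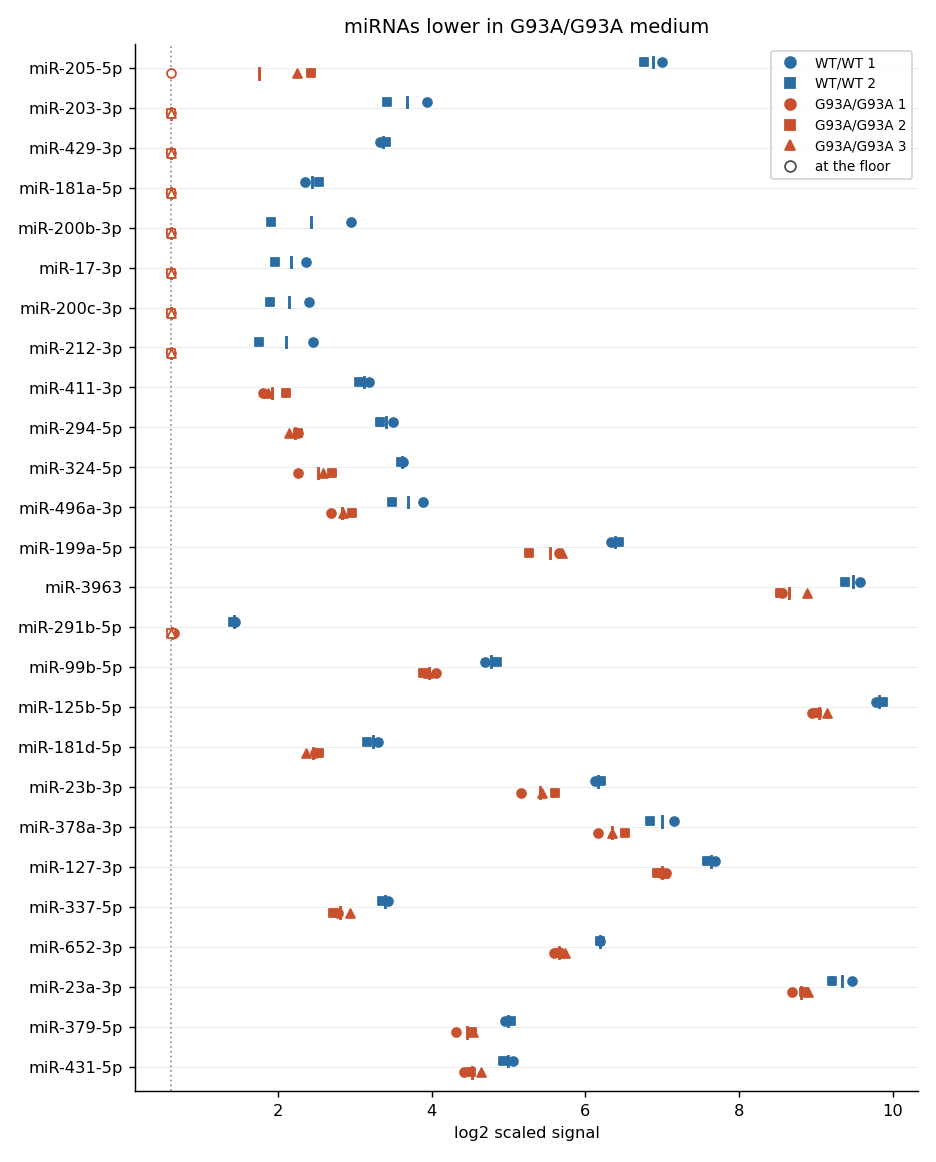
Log2 scaled signal of the 26 miRNAs that passed lower in G93A/G93A medium, 1 point per array, blue for the 2 WT/WT arrays and red for the 3 G93A/G93A arrays, with bars at group means, open symbols at the floor and the dotted line at the floor of 0.60. The groups are separate for every miRNA shown, and 7 of them are at the floor on all 3 mutant arrays.

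Family members were compared next, since probes for near-identical miRNAs can share signal and members with the same seed share targets. The miR-181 family, which acts in myoblast differentiation and in lymphocytes, shows this.
miR-181a-5p: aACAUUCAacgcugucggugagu
miR-181b-5p: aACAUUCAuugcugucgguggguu
miR-181d-5p: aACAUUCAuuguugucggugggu

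miR-181a-5p stood at 2.34 and 2.54 in WT/WT and was detected on no G93A/G93A array. It was at least 3.29-fold lower (adjusted p = 0.000891, the lowest of all) and passed in 24 of 24 alternatives. That p-value can be too small as well, since all 3 mutant arrays hold the floor value. Scanner errors for miR-181a-5p were 26.9% and 20.9% of the signal in WT/WT. miR-181d-5p stood at 3.30 and 3.16, then 2.48, 2.53 and 2.35, a difference of −0.77 ± 0.10 (SE, adjusted p = 0.00929). The brighter miR-181b-5p stood at 3.91 and 4.07, then 3.47, 3.64 and 3.39, with separate groups and a difference of −0.49 ± 0.14 that did not pass (SE, adjusted p = 0.0816). miR-181c-5p was detected on some arrays of both groups (−0.28 ± 0.57, SE, adjusted p = 0.824). Thus 2 of 4 fell, against 4.83% of all 538 tested and 25 of the 290 numbered below 1000. The family's median of −0.63 ranged from −0.84 to −0.47 over 13 alternatives. miR-181b-5p differs from miR-181d-5p over their shared length by C12U alone, and whether their differences were unequal was not tested. The precursors of miR-181a and miR-181b lie side by side on chromosomes 1 and 2, the second pair within the span of Nr6a1, an orphan nuclear receptor gene.

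The miR-125, miR-99 and miR-100 miRNAs are transcribed in shared clusters with let-7 or each other, and miR-125b restrains myoblast differentiation.
miR-125b-5p: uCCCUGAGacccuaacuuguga
miR-99a-5p: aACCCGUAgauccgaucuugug
miR-99b-5p: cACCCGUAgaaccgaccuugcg
miR-100-5p: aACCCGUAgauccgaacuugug

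miR-125b-5p was the brightest miRNA that passed, at 9.78 and 9.87 in WT/WT and 8.95, 9.01 and 9.14 in G93A/G93A. It was 1.73-fold lower, a difference of −0.79 ± 0.11 (SE, adjusted p = 0.00929), and passed in 22 of 27 alternatives. miR-99b-5p (chr17:17830194-17830215, within the span of Spaca6) stood at 4.69 and 4.84, then 4.05, 3.88 and 3.95, a difference of −0.81 ± 0.14 (SE, adjusted p = 0.0211). For both, every mutant array lay under every wild-type array, as for all 26 miRNAs that fell. Over all 538 tested, 22.7% lay wholly lower.

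The seed relatives of miR-99b-5p lay below zero without passing. miR-100-5p stood at 4.58 and 4.99, then 3.72, 3.65 and 4.24, a difference of −0.92 ± 0.24 (SE, adjusted p = 0.0732), and miR-99a-5p differed by −0.47 ± 0.17 (SE, adjusted p = 0.14). miR-100-5p differs from miR-99a-5p by U16A alone. miR-125a-5p, which has the seed of miR-125b-5p, differed by −0.24 ± 0.12 (SE, adjusted p = 0.263), and the other arm of the miR-99b hairpin, miR-99b-3p, by 0.21 ± 0.18 (SE, adjusted p = 0.519). In all, 2 of 7 tested members fell, against 4.83% of all 538 tested and 25 of the 290 numbered below 1000. The median of the 7, −0.47, ranged from −0.64 to −0.30 over 13 alternatives.

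The miR-23, miR-27 and miR-24 miRNAs come from a pair of clusters and act on muscle mass and myogenesis. miR-23a-3p, which represses the atrophy ligases Fbxo32 and Trim63, stood at 9.47 and 9.21, then 8.69, 8.84 and 8.90, a difference of −0.53 ± 0.12 (SE, adjusted p = 0.0437). miR-23b-3p stood at 6.12 and 6.20, then 5.16, 5.61 and 5.44, a difference of −0.76 ± 0.14 (SE, adjusted p = 0.0234). Both fell, with separate groups like all 26 miRNAs that fell, and miR-23a-3p passed in 10 of 27 alternatives. Their cluster mates did not pass: miR-24-3p differed by −0.37 ± 0.12 (SE, adjusted p = 0.108), miR-27a-3p by −0.37 ± 0.30 (SE, adjusted p = 0.483) and miR-27b-3p by −0.25 ± 0.54 (SE, adjusted p = 0.829). For the miR-27 miRNAs the groups overlapped. Over the 6 tested members the median was −0.37, and it ranged from −0.66 to −0.21 over 13 alternatives.

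A pair of dim miRNAs fell without their relatives passing.
miR-17-3p: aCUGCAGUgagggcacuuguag
miR-212-3p: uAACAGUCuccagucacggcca
miR-132-3p: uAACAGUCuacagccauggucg

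miR-17-3p, from the proliferation-linked miR-17-92 cluster (its position is chr14:115043721-115043742, plus strand), stood at 2.36 and 1.96 in WT/WT and was detected on no G93A/G93A array, at least 2.71-fold lower (adjusted p = 0.00301). It passed in 23 of 24 alternatives. The other 9 tested members of the cluster and its paralogues did not pass, and the median of all 10, −0.04, was below zero in 8 of 13 alternatives and above it in 5. The other arm, miR-17-5p, was detected on none of the 5 arrays.

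miR-212-3p, an activity-regulated miRNA known from neurons, stood at 2.45 and 1.75 in WT/WT and on no G93A/G93A array, at least 2.60-fold lower (adjusted p = 0.0154). Its neighbour miR-132-3p has the same seed and lies at chr11:75173723-75173744, next to miR-212-3p at chr11:75173443-75173464. miR-132-3p stood at 2.33 and 2.52, then 1.93, 2.27 and 2.60, and the groups overlapped (−0.16 ± 0.32, SE, adjusted p = 0.82). miR-212-3p was the 1 of 5 tested neural miRNAs that fell, and none rose. The neuron-defining miR-124-3p and miR-9-5p were detected on none of the 5 arrays.

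**Figure D3:**
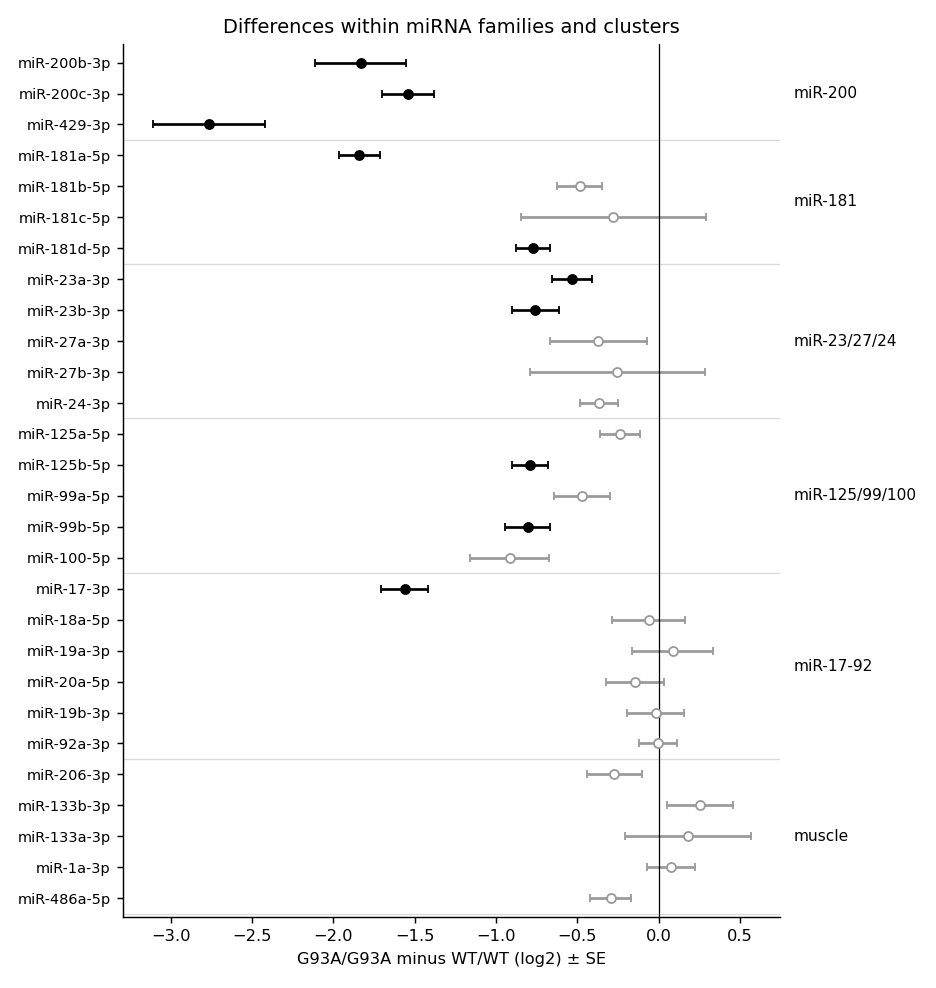
Difference G93A/G93A minus WT/WT (log2, x axis) with its SE for members of 6 families, clusters or tissue sets, filled where adjusted p was under 0.05 and open where it was not. All 3 miR-200 members passed, 2 of 4 miR-181 members passed, and none of the 5 muscle miRNAs shown passed, with values between −0.29 and 0.25. Over all 538 tested miRNAs, 8.55% passed.

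Among miRNAs of myoblast proliferation and differentiation, 3 of 17 tested fell: miR-125b-5p, miR-181a-5p and miR-378a-3p. miR-378a-3p, which promotes differentiation and is transcribed with Ppargc1b, stood at 7.15 and 6.84, then 6.16, 6.51 and 6.35, a difference of −0.65 ± 0.15 (SE, adjusted p = 0.0433). The other 14 did not pass, among them miR-26a-5p (−0.30 ± 0.15, SE, adjusted p = 0.253) and miR-221-3p (−0.34 ± 0.28, SE, adjusted p = 0.504). Of the 17, 16 lay below zero with a median of −0.34, which ranged from −0.49 to −0.17 over 13 alternatives. Over all 290 tested miRNAs numbered below 1000, 25 fell and the median was −0.11.

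Mesenchymal miRNAs mark the fibroblasts that limb muscle preparations can hold. miR-199a-5p, from the Dnm3 opposite-strand transcript and from Dnm2, stood at 6.34 and 6.44, then 5.65, 5.27 and 5.70, a difference of −0.85 ± 0.17 (SE, adjusted p = 0.0291). It alone of 9 tested fell. Its other arm, miR-199a-3p, stood at 8.15 and 8.23, then 7.65, 7.80 and 8.14 (−0.33 ± 0.22, SE, adjusted p = 0.38), and miR-214-3p, transcribed with it, differed by −0.37 ± 0.12 (SE, adjusted p = 0.108). All 9 lay below zero, with a median of −0.37 that ranged from −0.57 to −0.21 over 13 alternatives. Of the 290 tested miRNAs numbered below 1000, the class of all 9, 25 fell and 35.9% lay above zero. The median of that class was −0.11. The list's summed scaled signal was 1616 and 1420 in WT/WT and 922, 1180 and 1340 in G93A/G93A, so every mutant array was lower by this sum. As a share of each array's whole signal, G93A/G93A 1 and 2 were lower than both WT/WT arrays and G93A/G93A 3 was higher than both. The separation of the groups by this list's sum therefore depends on the measure used. The part of this list in the miR-181, miR-125 and miR-23 results was not tested.

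The imprinted Dlk1-Dio3 locus on chromosome 12 encodes a large miRNA cluster and is active in fetal and regenerating muscle. Of 40 tested miRNAs on the list for this locus, 6 fell and none rose. Over all 538 tested, 4.83% fell and 3.72% rose, and of 290 numbered below 1000, 25 fell and 4 rose. The list leaves out 10 tested miRNAs of the same clusters, of which 1 rose, and over all 50 the count was 6 lower and 1 higher. The largest fall was that of miR-411-3p, at 3.18 and 3.05 in WT/WT and 1.79, 2.10 and 1.86 in G93A/G93A (−1.19 ± 0.14, SE, adjusted p = 0.00595).
miR-411-3p: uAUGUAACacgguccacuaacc
miR-379-3p: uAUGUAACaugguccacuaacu
miR-379-3p, which differs from it by C10U and C22U, was not detected on these arrays. miR-127-3p, transcribed antisense to the retrotransposon-derived gene Rtl1, stood at 7.68 and 7.58, then 7.05, 6.93 and 7.02 (−0.63 ± 0.11, SE, adjusted p = 0.0211).

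The others that fell were miR-496a-3p (−0.85 ± 0.15), miR-337-5p (−0.58 ± 0.11), miR-379-5p (−0.53 ± 0.11) and miR-431-5p (−0.46 ± 0.11, all SE), with adjusted p from 0.0211 to 0.0489. Every mutant array lay below both wild-type arrays for each of them, as for all 26 miRNAs that fell. Over all 538 tested, 22.7% lay wholly lower. The list's median was −0.13, and it reached 0.01 in 1 of 13 alternatives. Of the 10 cluster members not on the list 7 lay above zero, with a median of 0.32, and the median over all 50 was −0.09. The 1 that rose, miR-3070-2-3p (chr12:109588648-109588669, within the span of Rtl1), stood at 1.69 and 2.14, then 2.90, 2.63 and 3.19, a difference of 0.99 ± 0.20 (SE, adjusted p = 0.0294).

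The miR-290 cluster on chromosome 7, known from embryonic stem cells, gave signals of either direction.
miR-291a-5p: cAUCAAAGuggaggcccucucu
miR-291b-5p: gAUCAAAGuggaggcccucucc
miR-294-5p: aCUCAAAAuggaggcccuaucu

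miR-294-5p stood at 3.50 and 3.32, then 2.26, 2.26 and 2.13, a difference of −1.19 ± 0.24 (SE, adjusted p = 0.0291). miR-291b-5p fell from 1.44 and 1.41 to 0.64 and the floor on the other 2 arrays (−0.81 ± 0.15, SE, adjusted p = 0.0234), close to the limit of detection. miR-291b-5p did not pass with the floor 2 times lower (adjusted p = 0.0665) or 2 times higher, where its difference was 0. miR-291a-5p, with the same seed, stood at 3.46 and 3.24, then 2.55, 2.31 and 1.79, and did not pass (−1.13 ± 0.33, SE, adjusted p = 0.0844). The opposite arm, miR-294-3p, was at the floor on both WT/WT arrays and at 3.50, 2.59 and 1.33 in G93A/G93A, a difference of 1.87 ± 0.79 that did not pass (SE, adjusted p = 0.188). The brightest member, miR-290a-5p, differed by −0.27 ± 0.15 (SE, adjusted p = 0.286).

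The remaining miRNAs that fell were miR-324-5p, miR-3963 and miR-652-3p. miR-324-5p, within the span of Acadvl, stood at 3.62 and 3.60, then 2.25, 2.70 and 2.58, a difference of −1.10 ± 0.20 (SE, adjusted p = 0.0211), while its other arm miR-324-3p overlapped between groups (−0.11 ± 0.14, SE, adjusted p = 0.699). miR-3963 was bright, at 9.58 and 9.38, then 8.55, 8.53 and 8.88, a difference of −0.83 ± 0.14 (SE, adjusted p = 0.0211). It was the 1 miRNA numbered 1000 or above that fell. miR-652-3p, on the X chromosome within the span of Tmem164, stood at 6.19 and 6.19, then 5.59, 5.65 and 5.73 (−0.53 ± 0.10, SE, adjusted p = 0.0211).

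The higher side was led by dim miRNAs, several within protein-coding genes.
miR-3097-5p: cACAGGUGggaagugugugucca
miR-8119: gAGGAGAGggagcuaggguc
miR-6913-5p: uGGGAGACcagucagguguugg
miR-466j: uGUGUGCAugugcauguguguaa
miR-7647-3p: aAGUCCAGgaggugguaguac
miR-7078-5p: uGUGGGUGguaggagacgcu
miR-423-5p: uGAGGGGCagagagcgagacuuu
miR-223-3p: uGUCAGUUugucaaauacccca

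miR-3097-5p (chr5:35021050-35021072, within the span of Rgs12, a regulator of G-protein signalling) was undetected in WT/WT and stood at 3.96, 3.71 and 2.95 in G93A/G93A, at least 6.73-fold higher (adjusted p = 0.0461). It passed in 5 of 25 alternatives. miR-8119 (chr4:129557756-129557775, within the span of the T cell kinase gene Lck) stood at the floor and 1.77 in WT/WT and at 3.37, 3.48 and 3.24 in G93A/G93A. Its difference was 2.18 ± 0.31 (SE, adjusted p = 0.0105), and it passed in 22 of 25 alternatives. With 1 wild-type array at the floor, that value depends on the floor (2.68 with the floor 2 times lower, 1.68 with it 2 times higher), and without WT/WT 1 it was 1.59. miR-6913-5p (within the span of Dohh), miR-7647-3p (Diablo) and miR-7078-5p (Cmip) were also undetected in WT/WT, and were at least 3.41-fold, 3.06-fold and 2.43-fold higher. They were detected on all 3 mutant arrays, at 2.06 to 3.49, 2.11 to 2.90 and 1.72 to 2.29.

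miRNAs detected on every array of 1 group and none of the other were counted in each direction. There were 7 of 538 seen in WT/WT alone (1.3%) and 10 seen in G93A/G93A alone (1.86%). All 7 of the first passed, as described above. Of the 10, 4 passed, and miR-195a-3p, miR-200a-5p, miR-294-3p, miR-297c-5p, miR-466a-5p and miR-466p-5p did not (adjusted p from 0.0634 to 0.301). miR-195a-3p, the passenger arm of a miR-15 family member, stood at 3.62, 2.26 and 1.95 in G93A/G93A (2.01 ± 0.55, SE, adjusted p = 0.0749).

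Among brighter miRNAs that rose, the changes were smaller. miR-423-5p, a circulating miRNA known from heart failure, within the span of Nsrp1, stood at 6.23 and 6.36, then 7.03, 6.99 and 6.83, 1.57-fold higher (0.65 ± 0.12, SE, adjusted p = 0.0211). miR-6921-5p, which shares its seed, differed by 0.40 ± 0.13 and did not pass (SE, adjusted p = 0.108). miR-223-3p, the myeloid cell miRNA, stood at 6.74 and 6.63, then 7.04, 7.31 and 7.27, 1.43-fold higher (0.52 ± 0.12, SE, adjusted p = 0.0433). It was the 1 of 5 tested leukocyte and platelet miRNAs that passed; miR-155-5p overlapped between groups, and miR-142a-3p and miR-150-5p, which mark leukocytes, were detected on none of the 5 arrays.

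The rest of the higher side had registry numbers of 883 and above, and for most of them no function is given here. miR-6957-5p stood at 3.60 and 3.33, then 4.59, 4.49 and 4.46, a difference of 1.05 ± 0.19 (SE, adjusted p = 0.0211). miR-7043-5p, within the span of Rassf4, stood at the floor and 1.14, then 2.56, 1.70 and 2.23 (1.30 ± 0.28, SE, adjusted p = 0.0378). miR-7043-5p did not pass with the floor 2 times lower (adjusted p = 0.0689) or 2 times higher (adjusted p = 0.241). miR-7084-5p (0.72), miR-7069-5p (0.70), miR-1966-5p (0.60), miR-6370 (0.60), miR-883a-5p (0.56), miR-6938-5p (0.55), miR-7056-5p (0.55), miR-6946-5p (0.42) and miR-7080-5p (0.41) completed it, each detected on all 5 arrays with separate groups. Separate groups were common in the whole table: 97 of 538 miRNAs lay wholly higher (18.0%) and 122 wholly lower (22.7%).

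**Figure D4:**
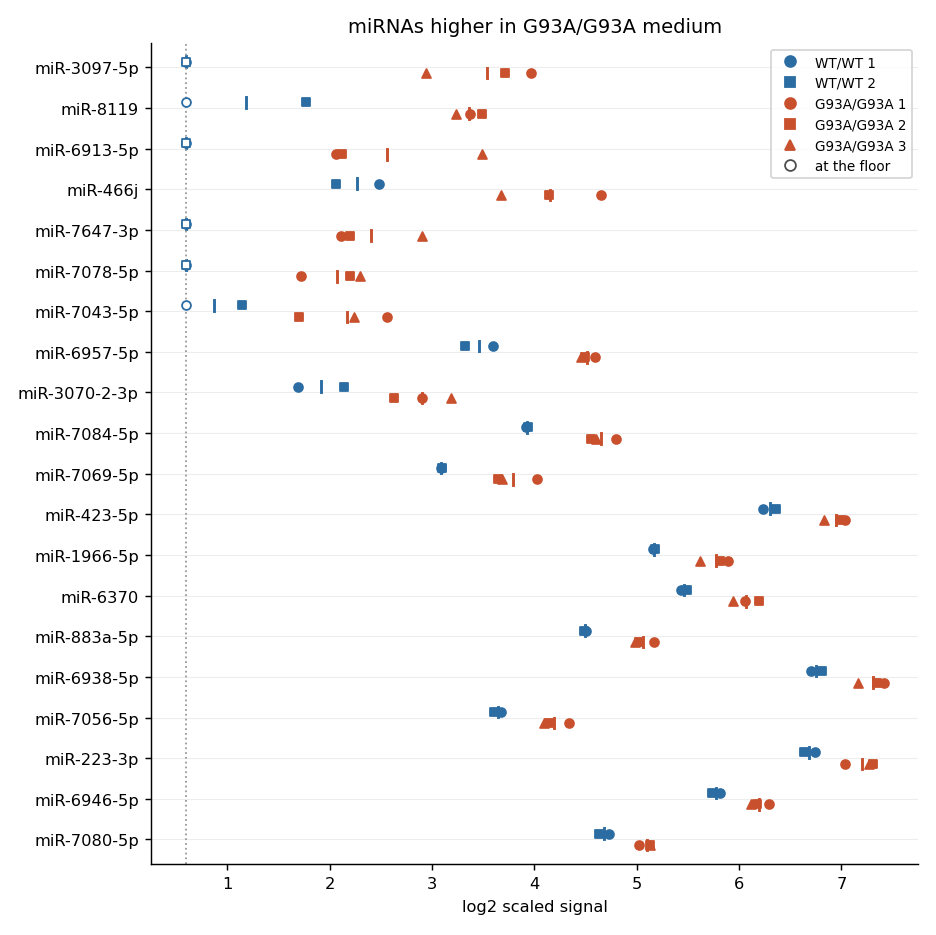
Log2 scaled signal of the 20 miRNAs that passed higher in G93A/G93A medium, 1 point per array, blue for the 2 WT/WT arrays and red for the 3 G93A/G93A arrays, with bars at group means, open symbols at the floor and the dotted line at the floor of 0.60. 4 of them are at the floor on both WT/WT arrays, and 14 were detected on all 5 arrays.

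miR-466j belongs with a set of miRNAs made of repeated UG units, which in the mouse come largely from an intron of Sfmbt2 and from scattered copies. It stood at 2.48 and 2.06, then 4.65, 4.14 and 3.67, a difference of 1.88 ± 0.42 (SE, adjusted p = 0.0396), and passed in 12 of 27 alternatives. All 17 tested miRNAs named miR-297, miR-466, miR-467 or miR-669 lay above zero, a grouping made after the values were seen. Over all 538 tested, 231 lay above zero. The differences of the 17 ran from 0.74 to 2.34, with a median of 1.36. A sequence was at hand for 2 of the 17, and both held the run UGUGUG. Whether probes for these miRNAs share signal was not tested, so the 17 may not be separate observations. miR-466j was the 1 that passed, and the other 16 had adjusted p up to 0.301.

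The brightest of the set, miR-466i-5p, stood at 8.58 and 8.58 in WT/WT and at 9.94, 9.27 and 8.88 in G93A/G93A (0.78 ± 0.32, SE, adjusted p = 0.173). miR-669n stood at 5.29 and 5.16, then 6.53, 5.88 and 5.49 (0.74 ± 0.32, SE, adjusted p = 0.19). The order of the mutant arrays was alike across the set, and G93A/G93A 1 was the highest of the 5 arrays for all 17. Without G93A/G93A 1 the set's median was 1.07, without G93A/G93A 3 it was 1.65, and without WT/WT 2 it was 0.99. The median SE was 0.46, against 0.18 over all tested miRNAs.

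**Figure D5:**
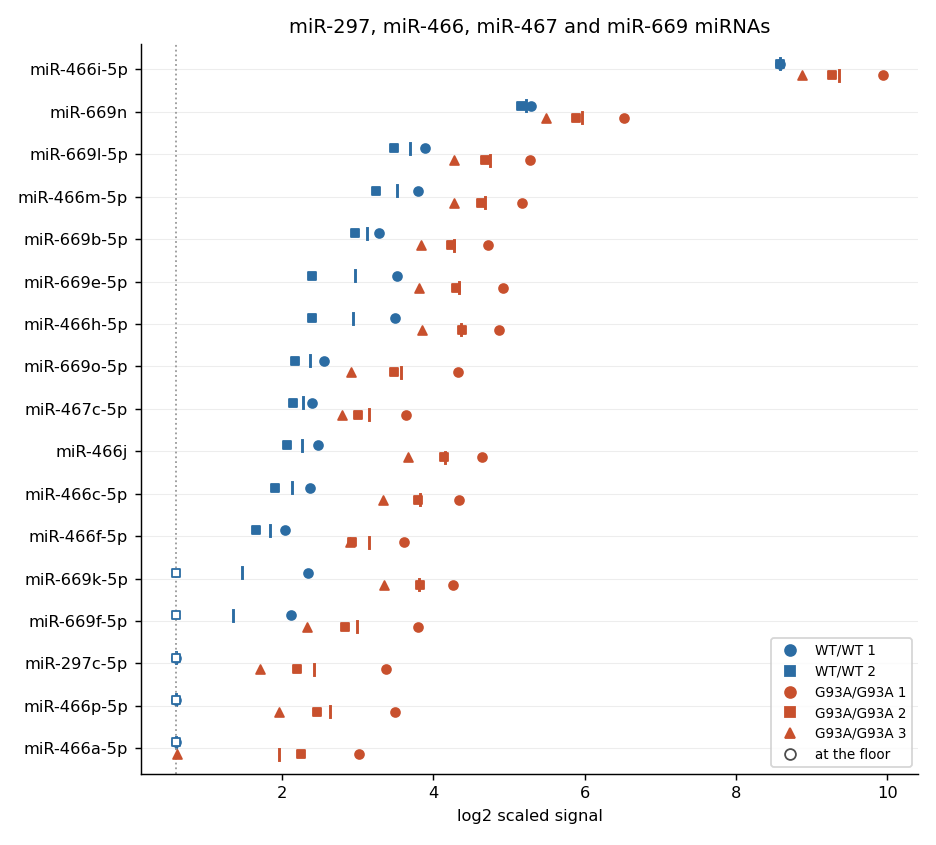
Log2 scaled signal (x axis) of the 17 tested miR-297, miR-466, miR-467 and miR-669 miRNAs, 1 point per array, blue for WT/WT and red for G93A/G93A, with bars at group means and open symbols at the floor of 0.60. The mutant arrays lie above the wild-type arrays in each row, with G93A/G93A 1 highest, and 1 of the 17, miR-466j, passed the test. Over all 538 tested miRNAs, 18.0% lay wholly higher and 22.7% wholly lower.

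The directions divided by registry number, which roughly follows the order of discovery. Of 290 tested miRNAs numbered below 1000, 4 rose and 25 fell, with a median of −0.11. Of 248 numbered 1000 or above, 16 rose and 1 fell, with a median of 0.01. The share of G differed as well: the miRNAs that rose had a median of 42.9% G (18 with a sequence) and those that fell 24.4% (24 with a sequence), against 36.4% over 453 tested miRNAs. Median GC was 54.5% both for those that rose and over the 453, and 48.9% for those that fell. Pearson r between GC and the difference was 0.03 over the 453 and −0.24 among those numbered 1000 or above. When both number classes were centred separately, 18 miRNAs passed, all among the 46. They comprised 4 higher and 14 lower. The part of base composition in this split was not tested.

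Several families had no member that passed. None of 10 let-7 and miR-98 miRNAs passed, and let-7b-5p, the differentiation-linked member named here, stood at 9.11 and 9.38, then 8.77, 8.90 and 8.79 (−0.42 ± 0.14, SE, adjusted p = 0.108). None of 10 miR-15/16, 6 miR-30 or 3 miR-29 miRNAs passed, with medians of −0.21, −0.33 and −0.45, each below zero in 13 of 13 alternatives. Those alternatives rest on the same arrays and hold no floor setting. Over all 290 tested miRNAs numbered below 1000 the median was −0.11. Of the 3 miR-29 miRNAs 1 was undetected on the 5 arrays, and the median of the detected 2 was −0.70. Among 6 erythroid and serum miRNAs none passed, and miR-451a, the red cell miRNA, overlapped between groups at 9.84 and 9.72, then 9.64, 10.15 and 10.28. The 1 tested endothelial miRNA, miR-126a-3p, differed by −0.23 ± 0.14 (SE, adjusted p = 0.346).

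Among 10 stress and hypoxia miRNAs, miR-423-5p rose and 9 did not pass. These included the hypoxia-induced miR-210-3p (−0.42 ± 0.15, SE, adjusted p = 0.14) and the p53 target miR-34a-5p, at 4.06 and 4.04, then 2.89, 3.08 and 3.79 (−0.80 ± 0.25, SE, adjusted p = 0.106). Of 16 tested miRNAs linked to ALS in patients or models, 3 fell (miR-199a-5p, miR-125b-5p and also miR-23a-3p) and 13 did not pass, with a median of −0.22. These 3 are also counted in the lists above, and of all 290 tested miRNAs numbered below 1000, 25 fell. miR-155-5p, raised in ALS spinal cord, stood at 4.33 and 4.42, then 4.20, 4.34 and 4.29 (−0.10 ± 0.10, SE, adjusted p = 0.588).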

How the data were processed

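Culture medium was measured on 1-colour (Cy3) Agilent mouse miRNA arrays. Per the file headers, each array's deposited file holds the total gene signal of every miRNA, an intensity, beside an error and a flag for detection, with undetected miRNAs listed at 0.1. The authors' deposited value table, of 492 miRNAs and 10 control features, holds linear intensity values too, judged from the values. Its scaling stays unknown, its array medians ran from 23.2 to 26.5, its log2 values followed the array signals at r = 0.970 to 0.999, and it served as an alternative. The scanner software was not given in the sources used here. Per the labels' protocols, RNA from 600 µl of medium was pooled over 3 extractions and 150 ng of small RNA (18 to 26 nucleotides) was labelled.

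Each array was scaled so that its 75th percentile over the 423 miRNAs detected on all 8 arrays was equal. Signals were floored at 1.52 units (the median of the arrays' lowest detected signals), and log2 was taken. The 538 miRNAs detected on at least 2 arrays were tested with limma 3.58.1 in R 4.3.3 (lmFit, eBayes, 3 groups on 8 arrays, prior degrees of freedom 1.96, Benjamini-Hochberg over the 538, threshold 0.05), after a check on simulated data. SE is limma's. Detection is judged per miRNA, so an "at least" fold is approximate. Named are the miRNAs that passed, list members, the brightest, those seen in 1 group alone, and arms, seed relatives and cluster neighbours of those that passed. Members and lists were chosen with earlier results of these data known.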

Additional observations from a re-analysis of the deposited data

How the results depend on the processing

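With 46 calls (20 higher, 26 lower) in the reported setting, 27 alternatives were run, some of which coincide. The count was 58 (37 and 21) with the percentile over all tested miRNAs, 33 (5 and 28) scaled on the median, 45 (19 and 26) after quantile normalization, 14 (7 and 7) without scaling, 18 (4 and 14) with number classes centred and 48 (25 and 23) on the authors' values. With the floor 2 times lower it was 37 (15 and 22), and 2 times higher 47 (24 and 23). Requiring detection on all 5 or all 8 arrays left 29 (13 and 16), with fewer miRNAs tested. A signal above 5 times its error gave 47 (28 and 19). Fitting the 5 arrays alone gave 17 (3 and 14), the slide row as a block 7 (1 and 6), and slide row 2 alone 9 (0 and 9). The mean-variance trend gave 56 (28 and 28) and robust eBayes 43 (18 and 25). Deviations of same-numbered WT/WT and G93A/G93A arrays from their group means correlated at −0.17 and −0.22. Since 2 wild-type arrays deviate by equal and opposite amounts, both values rest on 1 contrast and cannot settle whether replicate numbers pair the samples. A replicate block gave 10 calls (2 and 8). Leaving out 1 array gave 7 to 57 calls, 1 to 25 higher and 6 to 32 lower. Apart from those with fewer miRNAs or arrays, the cause was not tested. The difference in detected miRNAs stayed above zero, at 8 to 24 when 1 array was left out. Precision was lower for dim miRNAs: the median SE was 0.31 below a WT/WT level of 3 and 0.14 at 6 to 9.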

Other observations

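A sequence feature ran through part of the higher side. The run UGUGUG was searched in the mature miRNAs as transcribed, after the values were seen, and 13 of 453 tested miRNAs with a sequence held it (2.87%). Of these 13, 11 lay above zero in G93A/G93A against WT/WT medium, with a median difference of 0.74, and 40.4% of all 453 lay above zero. miR-466j and miR-3097-5p were the 2 that passed. Others with the run were miR-294-3p (1.87 ± 0.79, SE, adjusted p = 0.188), miR-6348 (1.65 ± 0.50, SE, adjusted p = 0.0955), miR-32-3p (1.19 ± 0.42, SE, adjusted p = 0.124), miR-672-5p (1.12 ± 0.41, SE, adjusted p = 0.135) and miR-574-5p (0.61 ± 0.30, SE, adjusted p = 0.241), none of which passed. The rest above zero were miR-669n (0.74), miR-1187 (0.73), miR-3082-5p (0.52) and miR-7226-5p (0.33), which did not pass either. The 2 below zero were let-7b-5p and the muscle miRNA miR-206-3p. No test was made of this pattern.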
